A study of Mus musculus with 15 samples.

Results

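The Rtl1 antisense microRNAs (miRNAs) of the imprinted Dlk1-Dio3 region were followed in mouse plasma after cecal ligation and puncture (CLP) and after a sham operation. Members were taken by name: the rows of the deposited miRNA count table for mmu-miR-127-3p, mmu-miR-434-3p, mmu-miR-434-5p, mmu-miR-136-3p, mmu-miR-136-5p, mmu-miR-431-5p and mmu-miR-433-3p (mmu for mouse, left out below), which are 7 of the 1205 rows and come from 5 hairpins. CLP ties off and pierces the cecum so that gut bacteria leak into the abdomen, and it serves as a model of sepsis from many microbes. There were 9 CLP and 6 sham libraries of small RNA. Every library came from wild type male C57BL/6J mice, from platelet-free plasma 24 h after surgery. The labels do not say that each library was a separate mouse, so p-values measure only the spread between these libraries, which may be technical.

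Imprinted genes are read from the copy of 1 parent only. In the Dlk1-Dio3 region the maternal chromosome makes long noncoding RNAs and a large number of miRNAs, and the paternal chromosome makes Rtl1, a protein gene derived from a retrotransposon. The miRNAs described here are cut from a maternal transcript that runs antisense to Rtl1, and in mouse they can direct cleavage of the Rtl1 mRNA, to which they pair in full. miRNAs of the region are known from brain, embryo, placenta and skeletal muscle. A hairpin can release a miRNA from its 5′ arm and another from its 3′ arm (5p and 3p), which have different targets.

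The 5 hairpins lie on the plus strand of chromosome 12 within 4942 bases (GRCm38), in the order miR-431 (chr12:109590447-109590537), miR-433 (chr12:109591715-109591838), miR-127 (chr12:109592846-109592915), miR-434 (chr12:109594506-109594599) and miR-136 (chr12:109595327-109595388). Their 10 mature arms all fall inside the coding exon of Rtl1 on the opposite strand in GENCODE M21, and the full complement of each was found in the 1 annotated Rtl1 transcript. The mature sequences of the 7 members, from RefSeq (GRCm38.p6), are shown because each arm was counted by its own sequence; the seed, bases 2 to 8, is in capitals.
miR-431-5p: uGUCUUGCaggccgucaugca
miR-433-3p: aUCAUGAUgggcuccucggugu
miR-127-3p: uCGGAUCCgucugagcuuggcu
miR-434-5p: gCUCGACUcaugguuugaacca
miR-434-3p: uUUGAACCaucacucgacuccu
miR-136-5p: aCUCCAUUuguuuugaugaugg
miR-136-3p: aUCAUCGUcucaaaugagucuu
No 2 members shared a seed, and none of their seeds occurred in another of the 1679 mouse mature miRNAs in the RefSeq table. The GC content of the members lay between 36.4% for each arm of miR-136 and 59.1% for miR-127-3p. It was 45.5% for miR-434-3p and 50% for miR-434-5p. The hairpins of miR-434 and miR-136 are shown because their arms moved apart in the data; the capitals mark the 5p arm and then the 3p arm.
miR-434 hairpin: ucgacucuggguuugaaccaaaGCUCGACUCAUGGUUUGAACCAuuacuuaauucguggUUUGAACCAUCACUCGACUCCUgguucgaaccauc
miR-136 hairpin: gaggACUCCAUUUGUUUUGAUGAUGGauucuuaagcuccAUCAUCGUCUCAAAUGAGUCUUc
The arms of miR-434 resemble each other: they share a run of 9 bases, which begins at base 1 of the 3p arm and at base 14 of the 5p arm. The arms of miR-431 share a run of 10 bases, those of miR-127 and of miR-433 a run of 5, and those of miR-136 a run of 4. Reads were divided between similar miRNAs in the deposited table, and of the member values only 1 was not a whole number, the 290.5 counts of miR-434-5p in CLP 2.

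Library totals ran from 5274676 to 13576482 counts. Platelet miRNAs from a list of 4 were present in both groups, with summed levels of 24244 to 33729 CPM in CLP and 43707 to 59806 CPM in sham, and those of red cells (4 rows) with 81453 to 377460 CPM in CLP and 157270 to 454440 CPM in sham. CPM are counts scaled to the library size as adjusted by TMM, a scaling that takes most miRNAs as unchanged. Of these lists, 1 of 4 platelet miRNAs was higher and 1 lower in CLP, and 0 of 4 red cell rows were higher and 1 lower. The lower red cell row was miR-451a, at 2960 ± 1540 CPM in CLP (SD, n = 9) and 7166 ± 3343 CPM in sham (n = 6). The lower platelet sum in CLP rested mainly on miR-191-5p, at 5450 ± 2419 CPM in CLP (SD, n = 9) and 37342 ± 3797 CPM in sham (n = 6). The higher one, miR-24-3p, had 19713 ± 3415 CPM in CLP and 11004 ± 2347 CPM in sham, and miR-223-3p and miR-126a-3p did not pass. The plasma therefore held RNA listed for blood cells, and which cells released the miRNAs described here was not measured. In bulk plasma, fewer releasing cells and less RNA per cell cannot be told apart.

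In CLP plasma the 3p arms of miR-434, miR-136 and miR-127 rose 3.30-fold, 3.19-fold and 2.36-fold in that order, while the 5p arm of miR-434 was 4.10-fold lower. The change of miR-433-3p did not pass the test, and miR-136-5p and miR-431-5p were too scarce to be tested. So 5 of the 7 members passed the abundance filter, and of those 3 were higher and 1 lower in CLP at an adjusted p under 0.05. Calls came from the quasi-likelihood test of edgeR, with p-values adjusted by Benjamini-Hochberg over 426 miRNAs, of which 47.2% passed, 25.4% higher and 21.8% lower in CLP. The median log2 fold change was 1.24 over the 5 tested members and 0.11 over all 426. Scaled by library size alone, 90 of all tested miRNAs were called higher and 126 lower, against 108 and 93 under TMM. The median over all was then -0.12. The 4 member calls held, that of miR-127-3p only narrowly (edgeR adjusted p = 0.0498).

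**Figure D1:**
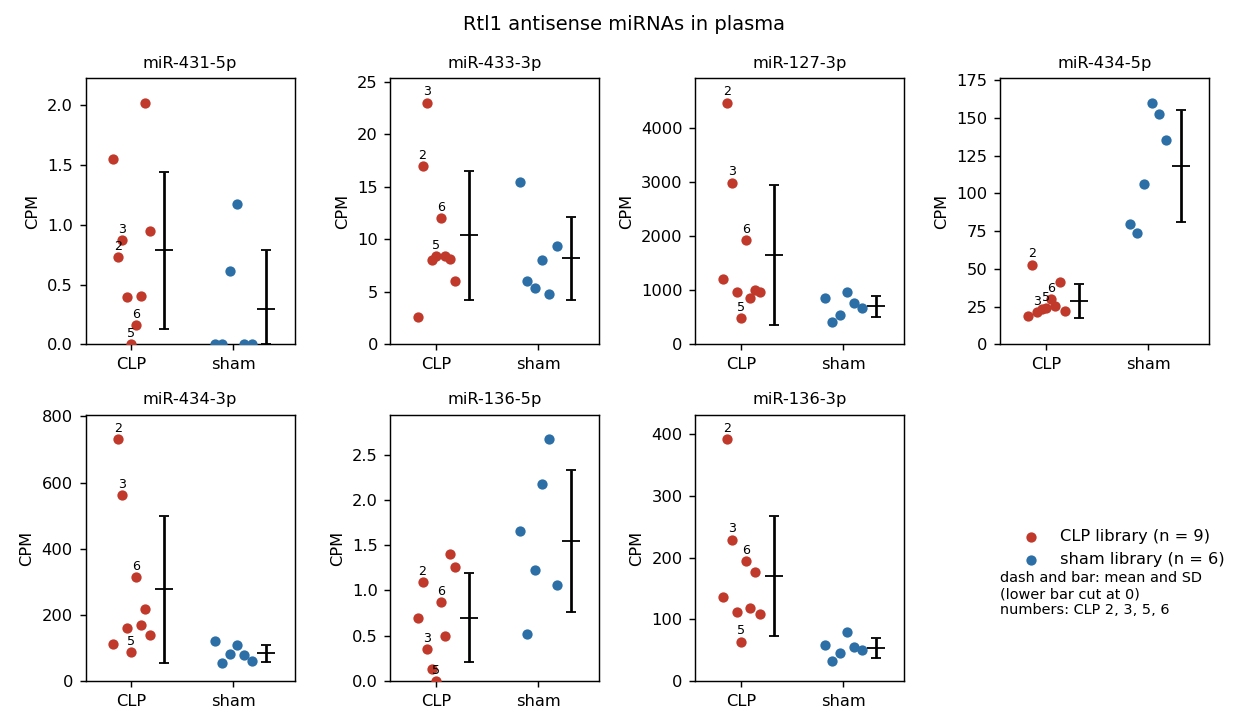
Level of each member in CPM (y axes, linear, each panel with its own scale) in the 9 CLP and the 6 sham libraries; points are libraries, the dash and bar beside them are the mean and SD, and the numbers mark CLP 2, 3, 5 and 6. All 9 CLP points of miR-434-5p lie below the lowest sham point, at 73.8 CPM, whereas the CLP points of miR-434-3p, miR-136-3p and miR-127-3p reach far above sham, with CLP 2 highest.

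The arms of the miR-434 hairpin went opposite ways, and its 5p arm had the smallest adjusted p of the members. miR-434-5p had 19.0, 23.8 and 52.8 CPM (lowest, median, highest) in CLP libraries, against 73.8, 120.6 and 160.2 CPM in sham libraries. The groups did not overlap: the highest CLP value was under the lowest sham value, as it was for 11.3% of tested miRNAs. It averaged 28.8 ± 11.2 CPM in CLP (SD, n = 9) and 118 ± 37.0 CPM in sham (n = 6), a log2 fold change of -2.04 ± 0.25 (SE; edgeR adjusted p = 3.36e-06). Raw counts of this arm were 110, 253 and 378 in CLP and 576, 826 and 1402 in sham, so it was lower in CLP even before scaling.

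The partner, miR-434-3p, had 86.4, 168 and 731 CPM (lowest, median, highest) in CLP libraries and 53.3, 79.8 and 120.2 CPM in sham libraries. Here the groups overlapped, with 7 CLP libraries above the sham range and CLP 1 and CLP 5 within it; for 8.45% of tested miRNAs, but for no member, all CLP libraries exceeded all sham libraries. Its means were 277 ± 223 CPM in CLP (SD, n = 9) and 83.8 ± 26.2 CPM in sham (n = 6). That is a log2 fold change of 1.72 ± 0.45 (SE; edgeR adjusted p = 0.00418). With the haemolysis index (log2 of the red cell miRNA miR-451a over miR-23a-3p) as a covariate, the change of miR-434-3p was 1.12 and no longer passed (edgeR adjusted p = 0.0599). The index averaged -1.41 ± 0.99 in CLP (SD, n = 9) and -0.44 ± 0.67 in sham (n = 6), and was highest in CLP 5, at 0.72. Its numerator, miR-451a, was itself lower in CLP (log2 fold change -1.28 ± 0.32, SE, edgeR adjusted p = 0.00313). The covariate thus carried part of the group difference, and whether haemolysis changed miR-434-3p was not tested.

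Both arm counts of a library share its scaling factor, so their ratio does not depend on library scaling. The 3p arm took 78.4%, 86.9% and 96.3% (lowest, median, highest) of the miR-434 reads in CLP libraries, and 31.0%, 41.2% and 60.1% in sham libraries. In sham the 5p arm was thus the more abundant one in every library but sham 1, and in CLP the 3p arm was the more abundant one in every library. On the log2 scale, with 0.5 added to each count, the ratio of 3p to 5p averaged 2.98 ± 0.85 in CLP (SD, n = 9) and -0.49 ± 0.60 in sham (n = 6). The difference of 3.47 passed an exact two-sided permutation test of the group labels (p = 0.0002, the smallest this test can give; adjusted over 95 hairpins 0.00127). Those 95 hairpins had a mean of at least 10 counts in each arm, and 51.6% of them passed, 22.1% with the 3p share higher and 29.5% with it lower in CLP. The CLP libraries lay wholly above the sham libraries in 10.5% of the 95 hairpins, miR-434 among them, and wholly below them in 8.42%. By size the miR-434 difference ranked 7 of 95. Of 92 hairpins with both arms in the edgeR test, 9.78% had arms that passed in opposite directions, and 6.52% had a higher 3p and a lower 5p arm, as miR-434 did. Summed over both arms, miR-434 stood at 305 ± 231 CPM in CLP (SD, n = 9) and 202 ± 47.6 CPM in sham (n = 6).

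**Figure D2:**
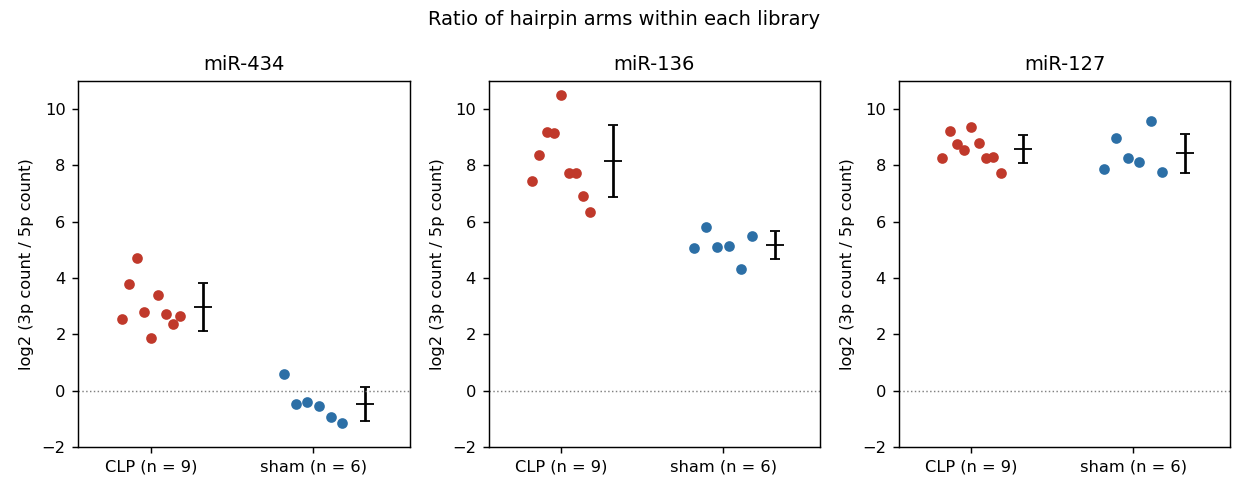
log2 ratio of 3p to 5p counts (y axes, same scale, 0.5 added to each count) within each CLP and sham library for the hairpins of miR-434, miR-136 and miR-127; points are libraries and the dash and bar are the mean and SD. The miR-434 ratios run from 1.86 to 4.71 in CLP and from -1.15 to 0.59 in sham, the miR-136 ratios are also apart, and the miR-127 ratios overlap.

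**Figure D3:**
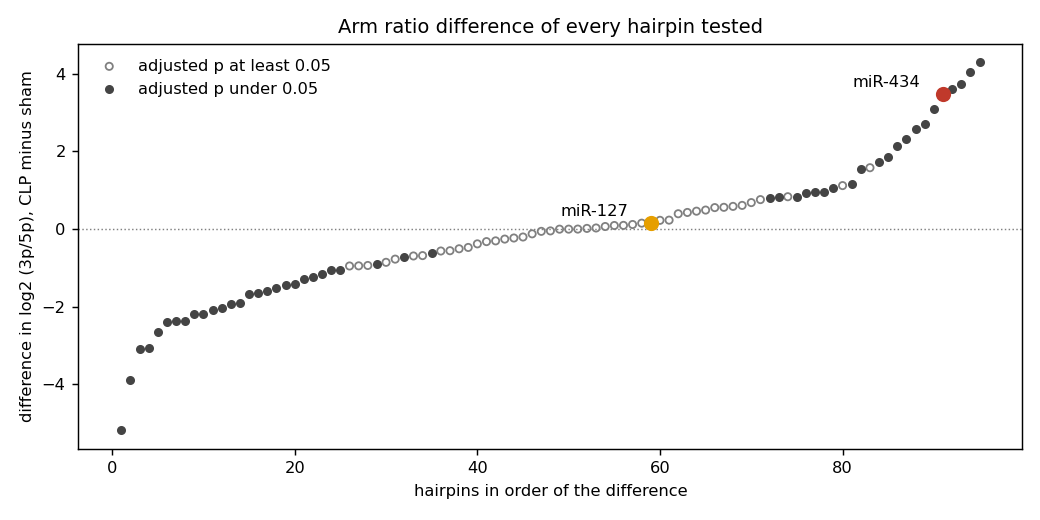
Difference in mean log2 ratio of 3p to 5p counts, CLP minus sham (y axis), of the 95 hairpins tested, in order of that difference (x axis); filled points had an adjusted permutation p under 0.05. miR-434, at 3.47, lies near the upper end, and miR-127, at 0.16, near the middle.

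From the miR-136 hairpin, miR-136-3p rose. It had 63.7, 136.4 and 391.6 CPM (lowest, median, highest) in CLP libraries, against 32.6, 52.5 and 79.8 CPM in sham libraries. CLP 5 was the 1 CLP library within the sham range, and CLP 2 held the highest value by a wide gap to CLP 3, at 229 CPM. The means were 170 ± 97.3 CPM in CLP (SD, n = 9) and 53.3 ± 15.8 CPM in sham (n = 6). The log2 fold change of miR-136-3p was 1.67 ± 0.34 (SE; edgeR adjusted p = 0.000509), and it passed under every alternative tried.

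The 5p arm of miR-136 was near the limit of detection. It had 0, 5 and 11 counts (lowest, median, highest) in CLP libraries and 4, 11.5 and 20 counts in sham libraries. CLP 5 had 0 of 11972726 counts, which allows up to 0.251 CPM of the unadjusted total, and the 20 counts of sham 5 came to 2.98 CPM of that total (95% Wilson interval 1.93 to 4.60, counting error only). Taken over each group, 48 counts came from 81971410 in CLP and 68 from 41851050 in sham. miR-136-5p did not pass the filter; with no filter its log2 fold change was -1.15 ± 0.67 (SE; edgeR adjusted p = 0.193), among 1182 miRNAs of which 26.0% passed. The arm ratio of miR-136, with the 0.5 added to counts this low, averaged 8.15 ± 1.29 on the log2 scale in CLP (SD, n = 9) and 5.16 ± 0.50 in sham (n = 6). Its CLP libraries, from 6.33 upwards, all exceeded the sham libraries, which reached 5.82. It fell short of the minimum of 10 counts per arm. With no minimum the difference of 2.99 passed (exact permutation p = 0.000400, adjusted over 340 hairpins 0.00543). Of those 340 hairpins 22.1% passed, 10.6% with the 3p share higher in CLP. How many of the 340 had groups wholly apart was not counted. Both hairpins with 2 members therefore gave a larger 3p share in CLP, with the miR-136 value resting on at most 20 counts of the 5p arm in a library.

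miR-127-3p, the most abundant member, ranked 51 of the 426 tested miRNAs by mean CPM. It had 488, 1001 and 4460.5 CPM (lowest, median, highest) in CLP libraries, and 418, 712 and 958 CPM in sham libraries. The groups overlapped, with 6 CLP libraries above the sham range and CLP 4, 5 and 7 within it. Its averages were 1648 ± 1290.0 CPM in CLP (SD, n = 9) and 698 ± 200.1 CPM in sham (n = 6), a log2 fold change of 1.24 ± 0.42 (SE; edgeR adjusted p = 0.0211). This call was lost without sham 2 (edgeR adjusted p = 0.0551), without sham 3 (0.0511) or without sham 6 (0.0554), with no filter (0.0550), and with the haemolysis index as a covariate, where the change was 0.64 (0.255).

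The arms of miR-127 did not move apart. The 3p arm took 99.7% of the reads of this hairpin as a median in each group, and miR-127-5p had 8, 27 and 79 counts (lowest, median, highest) in CLP libraries and 6, 15.5 and 31 counts in sham libraries. The change of miR-127-5p did not pass (log2 fold change 0.83 ± 0.47, edgeR adjusted p = 0.146). Its arm ratio averaged 8.59 ± 0.51 in CLP (SD, n = 9) and 8.43 ± 0.70 in sham (n = 6), a difference of 0.16 that did not pass (exact permutation p = 0.610, adjusted over 95 hairpins 0.690). A difference as large as that of miR-434 was not seen at miR-127, although whether the 2 hairpins differ was not tested.

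miR-433-3p had 2.59, 8.37 and 23.0 CPM (lowest, median, highest) in CLP libraries and 4.80, 7.03 and 15.5 CPM in sham libraries. The groups overlapped: CLP 2 and CLP 3 lay above the sham range and CLP 1 below it. Its averages were 10.4 ± 6.17 CPM in CLP (SD, n = 9) and 8.17 ± 3.97 CPM in sham (n = 6), and the log2 fold change of 0.35 ± 0.39 did not pass (SE; edgeR adjusted p = 0.478). The other arm, miR-433-5p, had 4 counts in sham 4 and 0 in the other libraries, so no arm ratio is given.

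miR-431-5p had 0, 4 and 13 counts (lowest, median, highest) in CLP libraries and 0, 0 and 7 counts in sham libraries. It was read in 8 of 9 CLP and in 2 of 6 sham libraries, with CLP 5 the 1 CLP library at 0. Among the sham libraries at 0, the deepest, sham 6, allows up to 0.280 CPM of the unadjusted total. With no filter its log2 fold change of 1.37 ± 0.89 did not pass (SE; edgeR adjusted p = 0.253). The opposite arm, miR-431-3p, which is not a member, was read in 9 of 9 CLP libraries, with 1 to 18 counts each, and in 0 of 6 sham libraries. Set against 3 counts over the whole sham group, miR-431-3p was at least 9.87-fold higher in CLP. It passed when no filter was used (edgeR adjusted p = 0.000269), where 11.8% of miRNAs were higher in CLP. That fit also called miR-433-5p lower in CLP (log2 fold change -3.075, edgeR adjusted p = 0.0248), on 4 counts in sham 4 alone. A call on counts this low is therefore weak.

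Among the 5 tested members, all 22 bases long, the order of mean levels differed between the groups only in the place of miR-434-5p. In CLP libraries the order of the means was miR-127-3p, miR-434-3p, miR-136-3p, miR-434-5p and miR-433-3p, where the ranges of miR-434-3p and miR-136-3p overlapped, as did those of miR-434-5p and miR-433-3p. In sham libraries miR-434-5p came second, ahead of miR-434-3p and miR-136-3p, and among these 3 the ranges of neighbours overlapped. miR-127-3p was above all others in each library of either group. Adapter ligation favours some end sequences, so levels of different miRNAs compare only roughly.

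The CLP libraries varied more than the sham libraries in the 3p arms. The coefficient of variation was 78.3% in CLP and 28.7% in sham for miR-127-3p, 80.8% and 31.3% for miR-434-3p, and 57.3% and 29.6% for miR-136-3p. For miR-434-5p it was 38.8% in CLP and 31.4% in sham. A wider spread in CLP was not particular to the members. In the Mirg cluster, miR-381-3p had 104 ± 117 CPM in CLP (SD, n = 9) and 13.7 ± 4.36 CPM in sham (n = 6). Outside the region, miR-22-3p, picked as an example, had 114353 ± 61576 CPM in CLP and 29869 ± 7318 CPM in sham. How many of the tested miRNAs varied more in CLP was not counted. CLP 2, CLP 3 and CLP 6 were the 3 highest CLP libraries for miR-127-3p, miR-434-3p, miR-136-3p and miR-433-3p. CLP 5 was the lowest for the first 3 of these members. CLP 2, CLP 3 and CLP 6 were likewise highest for 4.46% of tested miRNAs and for 6 of 24 in the Mirg cluster. Upstream of Rtl1 this held for miR-337-5p, miR-540-5p and miR-665-3p, but not for miR-770-3p, miR-673-5p or miR-493-5p. The pattern was thus not particular to the members. The same 3 libraries had the highest miR-434 arm ratios, at 4.71 in CLP 3, 3.78 in CLP 2 and 3.39 in CLP 6, and CLP 5 the lowest of the CLP group, at 1.86. Left out singly, none of the 9 CLP libraries ended the call of a member. Without CLP 2 the log2 fold change was 0.84 for miR-127-3p (edgeR adjusted p = 0.0420), 1.33 for miR-434-3p (0.00473) and 1.37 for miR-136-3p (0.000480).

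Summed levels of cell type lists in the same libraries differed from list to list. Red cell miRNAs summed to 377460 CPM in CLP 5, the highest of the CLP group, followed by 232710 CPM in CLP 3, 179520 CPM in CLP 6 and 166200 CPM in CLP 2, while the other 5 CLP libraries held 81453 to 123260 CPM. Most of that sum was the row of miR-486a-5p and miR-486b-5p, at 157240 ± 88057 CPM in CLP (SD, n = 9). By contrast, miR-451a and miR-144-3p were highest in CLP 1, 5 and 6, and miR-144-5p in CLP 1, 4 and 9. The haemolysis index was -2.53 in CLP 2, the lowest of all libraries, -1.90 in CLP 3 and -0.38 in CLP 6. Of a neural list, 6 of 7 names were tested, 2 were higher and 1 lower in CLP, and none was at 0 in every library of a group. Its summed level ran from 190 to 555 CPM in CLP and from 126 to 212 CPM in sham, with its 3 highest values in CLP 2 (555 CPM), CLP 3 (539 CPM) and CLP 6 (454 CPM). Most of that sum was miR-128-3p, at 348 ± 122 CPM in CLP (SD, n = 9) and 141 ± 37.9 CPM in sham (n = 6; edgeR adjusted p = 0.000381). The other higher one was miR-129-5p, at 16.4 ± 6.91 CPM in CLP (SD, n = 9) and 2.62 ± 0.83 CPM in sham (n = 6; edgeR adjusted p = 8.47e-06). The lower one, miR-219a-2-3p, was scarce, at 0.283 ± 0.353 CPM in CLP (SD, n = 9) and 3.53 ± 2.10 CPM in sham (n = 6; edgeR adjusted p = 0.000188). Striated muscle miRNAs, of which 4 of 7 were higher and 0 lower in CLP, summed to between 5022 and 40714 CPM in CLP and between 482 and 7254 CPM in sham. There the highest library was CLP 9, and CLP 2, 3 and 6 held 21409, 19349 and 28158 CPM. The 4 higher muscle miRNAs were miR-1a-3p, miR-206-3p, miR-208b-3p and miR-499-5p. The call of miR-499-5p was lost without sham 1 or sham 6 (highest edgeR adjusted p 0.0560). Hepatocyte miRNAs, 1 of 3 higher and 0 lower, were at 14266 to 146920 CPM in CLP and 22547 to 46182 CPM in sham, highest in CLP 1. On average most of that sum was miR-192-5p, at 35357 ± 16342 CPM in CLP (SD, n = 9) and 24201 ± 4653 CPM in sham (n = 6). Neither miR-192-5p nor miR-122-5p passed (edgeR adjusted p = 0.122 and 0.139). The 1 higher was miR-194-5p, at 140 ± 89.8 CPM in CLP and 78.2 ± 28.6 CPM in sham (edgeR adjusted p = 0.0423). Its call was lost in 11 of 15 fits that left out 1 library each (highest edgeR adjusted p 0.115). The part of these cells in the levels of the Rtl1 antisense miRNAs was not tested.

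Other miRNAs of the region were read from lists of names. From Meg3, the maternal noncoding RNA upstream, to Rtl1, 5 of 6 tested miRNAs were higher and 0 lower in CLP, with a median log2 fold change of 1.95; 1 of the 5, miR-770-3p, lies within Meg3 itself. The 4 most abundant of these 5 were miR-665-3p (2.12 ± 0.53, SE), miR-493-5p (3.52 ± 0.92), miR-540-5p (1.70 ± 0.62) and miR-337-5p (2.10 ± 0.57), with edgeR adjusted p from 0.00299 to 0.0302. CLP 2 was the highest library for all 4. Without it miR-493-5p averaged 4.50 ± 4.14 CPM in CLP (SD, n = 8; log2 fold change 2.57, edgeR adjusted p = 0.0050) and miR-665-3p 7.94 ± 4.50 CPM (1.54, edgeR adjusted p = 0.00319). The call of miR-540-5p was lost without CLP 2 (edgeR adjusted p = 0.0735), and also without CLP 3, sham 3, sham 5 or sham 6 (highest edgeR adjusted p 0.0845). All were scarce: miR-665-3p averaged 11.6 ± 11.7 CPM in CLP (SD, n = 9) and 2.62 ± 1.20 CPM in sham (n = 6). In the Rian transcript downstream, 1 of 2 tested miRNAs was higher, miR-341-3p, at 3.77 ± 4.43 CPM in CLP and 0.744 ± 0.315 CPM in sham (edgeR adjusted p = 0.00508). Its highest CLP library was again CLP 2, at 15.3 CPM; leaving that library out gave a CLP mean of 2.33 ± 1.01 CPM (SD, n = 8; log2 fold change 1.58, edgeR adjusted p = 0.0102). In the distal Mirg cluster 12 of 24 tested were higher and 4 lower, with a median of 1.26. For miR-300-3p all 9 CLP libraries lay above sham, at 135 ± 77.5 CPM in CLP and 39.2 ± 9.06 CPM in sham. Its most abundant miRNA, miR-541-5p, fell, with 306 ± 95.4 CPM in CLP (SD, n = 9) and 662 ± 119 CPM in sham (n = 6; log2 fold change -1.11 ± 0.20, edgeR adjusted p = 0.000154). Thus falls beside rises were seen among miRNAs of the Mirg cluster, whereas at miR-434 they were the 2 arms of 1 hairpin. The arm ratios of miR-382, miR-485 and miR-409, all of the Mirg cluster, did not pass (exact permutation, adjusted p = 0.249, 0.282 and 0.465).

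**Figure D4:**
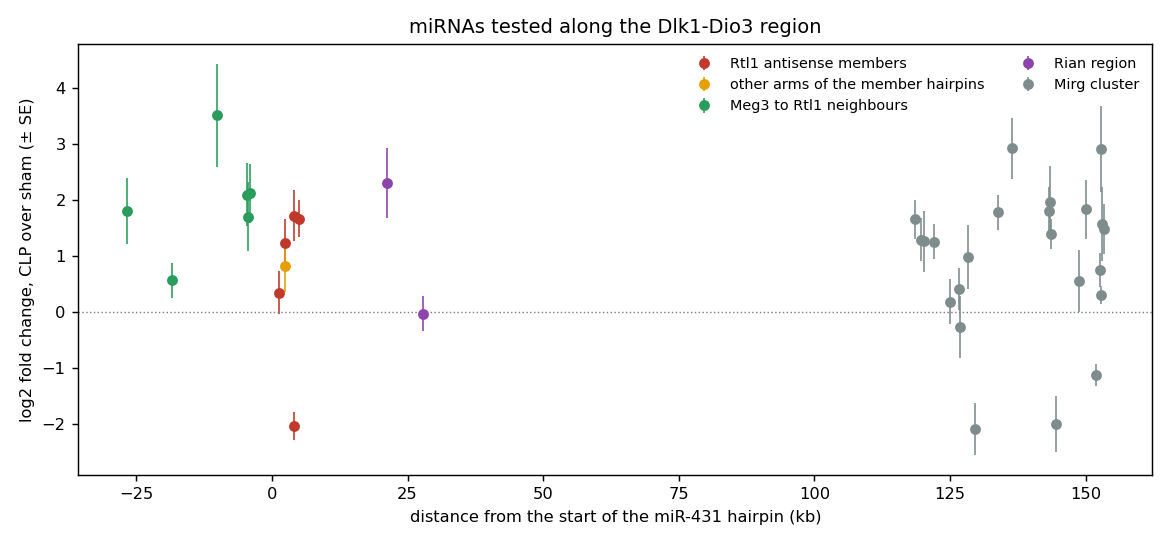
log2 fold change, CLP over sham, with its SE (y axis) of 37 tested miRNAs of the region with a RefSeq position, against their distance in kb from the start of the miR-431 hairpin (x axis); colours mark the lists. miR-434-5p, at -2.04, is the 1 point below -1 among the members and their upstream neighbours, and 3 points of the Mirg cluster lie below -1.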

How the data were processed

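The deposited table holds expected counts, that is estimated read counts for each mature miRNA that need not be whole, which the authors did not scale for depth. Its name points to exceRpt, a pipeline for small RNA. Reads were placed on mm10, per the submitters' processing notes; how reads were trimmed and aligned is not given in the sources used here. Of all entries, 4.56% were fractional. Each of the 15 columns carried the label of 1 library, and 0 columns were unused. Values were rounded for the model fits.

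The comparison of CLP with sham was fitted in edgeR 4.0.16 (R 4.3.3; filterByExpr, TMM, robust quasi-likelihood F test, no covariate, two-sided, threshold 0.05), with SE taken as the size of the log2 fold change over the square root of F. Arm ratios used the unrounded counts, arms paired by name, and exact permutation of libraries. Both tests were tried on simulated data with equal spread in CLP and sham, which does not match the wider CLP spread of the 3p arms. Libraries of a group were not copies (lowest chi-square per degree of freedom 284 in sham and 450 in CLP). Alternatives used DESeq2 1.42.0 and limma 3.58.1. Mature sequences were matched for 1003 of 1213 names. Floors are 3 counts, and intervals cover counting error only, since PCR reads are not independent molecules.

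The members, lists and tests were chosen with earlier results of these data known. Named miRNAs were the 7 members, the other arms of their hairpins, up to 4 called members of each list with the highest mean CPM, and the 5 nearest profiles. Leaving out CLP 1 and CLP 5 together was added after the data were seen.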

Additional observations from a re-analysis of the deposited data

Results flagged for a closer look

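For miR-136-3p, CLP 2 stood apart from the other 8 CLP libraries at 391.6 CPM, where the next highest, CLP 3, held 229.1 CPM. The gap was 0.496 of the range of the group, just past Dixon's limit of 0.493 for 9 libraries. Of 20 groups of values examined (7 members and 3 arm ratios, in CLP and in sham), this was the 1 flagged, and chance flags about 1 in 20. Without CLP 2 the log2 fold change of miR-136-3p was 1.37 (edgeR adjusted p = 0.000480).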

How the results depend on the processing

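miR-434-5p and miR-136-3p kept their direction and their call under all 26 alternatives, with log2 fold changes from -2.27 to -1.94 and from 1.20 to 1.83. miR-434-3p did so under 24, with values from 1.12 to 1.97, and miR-127-3p under 20, with values from 0.64 to 1.65; no alternative reversed the direction of a tested member. The count of 201 differing miRNAs lay between 141 and 236 under the other alternatives, and was 307 with no filter, where more miRNAs were tested. Of the hairpins, 49 differed in arm ratio, 30 with a mean of at least 50 counts in each arm and 75 with no minimum, since these change how many were tested. Same-numbered CLP and sham libraries did not deviate together (correlations from -0.15 to -0.03), so the numbers were not taken as pairs. With the replicate block over 12 libraries 152 miRNAs differed, and miR-127-3p (1.13, edgeR adjusted p = 0.129) and miR-434-3p (1.51, edgeR adjusted p = 0.0684) did not pass; with the same libraries and no block they did (1.46 and 1.90). Paired over 6 numbers, 0 hairpins passed on arm ratio, as the smallest possible exact sign-flip p is 0.0313 before adjustment; the miR-434 difference was 3.67 there (adjusted 0.0938). Leaving out 1 library in turn gave arm ratio differences of 3.26 to 3.69 for miR-434, and 37 to 51 differing hairpins. Without CLP 1 and CLP 5 together, the change of miR-127-3p was 1.43 and that of miR-434-3p 1.97. With the GC trend removed, miR-434-3p was at 1.55 and miR-434-5p at -2.03. The counts of miR-136-5p, miR-431-5p, miR-431-3p and miR-433-5p limit what can be said of those arms.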

Other observations

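The 5 miRNAs outside the members whose log2 profile over the 15 libraries lay nearest to the mean profile of the 5 tested members were compared by root mean square distance, after each profile was centred on its own mean. That mean profile includes miR-434-5p, which moved against the rest, and its distance from a flat line was 0.61. Nearest were miR-409-5p and miR-666-5p, both of the Mirg cluster, at 0.36 and 0.40 on the log2 scale. They were followed by miR-7068-3p at 0.44, miR-6896-5p at 0.45 and miR-676-5p at 0.48, none of which is on a list for the region. Of these, miR-666-5p, miR-7068-3p and miR-6896-5p did not differ between the groups (edgeR adjusted p = 0.386, 0.802 and 0.164). Of the members, miR-127-3p lay at 0.40, miR-433-3p at 0.49, miR-434-3p at 0.56, miR-136-3p at 0.58 and miR-434-5p at 1.30. All members but miR-127-3p thus lay farther from their mean profile than these 5 miRNAs. The median distance over tested miRNAs outside the members was 0.92. miR-409-5p averaged 105 ± 52.4 CPM in CLP (SD, n = 9) and 62.5 ± 13.7 CPM in sham (n = 6), with a log2 fold change of 0.75 ± 0.30 (SE; edgeR adjusted p = 0.0458), and CLP 2, CLP 3 and CLP 6 were its 3 highest CLP libraries, as for miR-127-3p. Its call was lost in 13 of 15 fits that left out 1 library each, all but those without CLP 5 or CLP 9 (highest edgeR adjusted p 0.128).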
